A study of Homo sapiens with 6 samples.

Results

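The clustered protocadherins are the adhesion genes of 3 tandem arrays on the long arm of chromosome 5, and were taken here as every row on that chromosome whose symbol begins with PCDHA, PCDHB or PCDHG. The rule gave 60 genes of 35784. They were 16 in the PCDHA (alpha) cluster, 20 in the PCDHB (beta) cluster and 24 in the PCDHG (gamma) cluster, between chr5:140786136 and 141512975 in GRCh38. Of these, 53 were protein coding, 6 were pseudogenes and 1 was an RNA antisense to the beta cluster, PCDHB1-AS1. Total RNA had been sequenced from NCI-H1299, an established line of human non-small cell lung carcinoma, in 2 groups of 3 libraries. The control cells are those labelled KO-NC, with genotype given as control and no guide described for them here. The knockout cells are those labelled KO-IGF2BP3, in which that gene, encoding an RNA-binding protein known to read N6-methyladenosine in messages, was targeted with guides in LentiCrisprv2. Infected cells were kept under puromycin, and colonies that each began with 1 cell supplied the RNA. The labels do not tell which colony a library came from, nor whether replicates were separate cultures. Every p-value below thus rests on the spread among these 6 libraries alone, which may be technical, and an effect of the knockout and a property of the colony cannot be told apart.

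Clustered protocadherins are transmembrane proteins whose cadherin ectodomains bind the same isoform on a neighbouring cell, and in neurons the set of isoforms a cell makes is known to give it an identity that lets its branches recognise each other. Each large first exon has a promoter of its own. In a neuron most of these promoters are known to be chosen at random, through binding of CTCF and cohesin and loss of DNA methylation, while the isoforms called C-types at the end of the alpha and gamma clusters are made more widely. In the alpha and gamma clusters the chosen first exon is spliced to constant exons that encode a shared cytoplasmic end. Beta genes have a single exon and no constant part.

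The shared exons are shown first because they bear on how reads were assigned to members. In GENCODE release 29, 2 short constant exons were present in all 15 protein-coding PCDHA genes, and a last one, of 2718 bases, was in 14 of 15 with the same limits (chr5:141009627-141012344). PCDHG had the same layout, with 2 short exons in all 22 protein-coding genes and a last one of 2033 bases in 21 of 22 (chr5:141510947-141512979). The short exons are coding over their whole length and lie on the plus strand, at chr5:140978949-140979007 and chr5:140982475-140982563 for PCDHA and at chr5:141494807-141494865 and chr5:141505393-141505481 for PCDHG. They read, 5′ to 3′, with no capitals since no part is marked:
PCDHA constant exon 1: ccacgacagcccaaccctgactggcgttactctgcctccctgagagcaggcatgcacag
PCDHG constant exon 1: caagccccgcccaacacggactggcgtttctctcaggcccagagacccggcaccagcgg
PCDHA constant exon 2: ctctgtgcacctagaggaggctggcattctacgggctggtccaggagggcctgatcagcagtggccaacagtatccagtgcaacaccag
PCDHG constant exon 2: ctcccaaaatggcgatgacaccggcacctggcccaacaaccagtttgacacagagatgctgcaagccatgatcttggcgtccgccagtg
The first exons of the pair have 59 bases each and were identical at 39 of them (66.1%, compared without gaps). The second ones have 89 bases each and were identical at 29 (32.6%).

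The constant exons made up a median of 54.5% of the transcript over 15 PCDHA genes and 47.2% over 22 PCDHG genes, and none of the 16 PCDHB genes. A read that lies wholly in one of them fits every gene of its cluster that has that exon. First exons were far more distinct. The median share of words of 75 bases in a first exon that also occur in another member was 3.25% for PCDHA, 8.97% for PCDHB and 3.99% for PCDHG. The highest shares were 26.3% for PCDHA7, which shared most with PCDHA9, 34.6% for PCDHB8, which shared most with PCDHB13, and 19.0% for PCDHGB4, which shared most with PCDHGB5. The length implied by the deposited counts and FPKM, where FPKM is the count per kilobase of gene and per 1e+06 reads, was set against the transcript with its constant exons. Over the 3 beta genes with enough counts it was 1.04 to 1.05 times the transcript. Over 9 alpha genes it was 1.08 to 3.17 times the transcript, the highest being PCDHA10, and over 7 gamma genes it was 1.1 to 1.59 times. Within alpha it was 1.08, 1.09 and 1.11 for PCDHA11, PCDHAC2 and PCDHA12 and 2.69 for PCDHA4. Why this ratio differs between genes was not tested. Because of the shared exons, levels of single alpha and gamma members are uncertain to the extent that StringTie divided shared reads between them. Beta members carry only the overlap of their own sequence. The files' coordinates equalled those of release 29 for 10 of the 59 members found in it, so the authors' annotation was another release.

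The promoters are shown next, since promoter choice decides which isoform a cell makes. Upstream of most clustered protocadherin first exons lies a conserved sequence element with the known core CGCT. RefSeq (GRCh38.p14) gave a promoter for 47 members. The 4 letters were found, in the direction of transcription, between 100 and 20 bases before the RefSeq start in 43 of them (91.5%), against 22.7% of 35116 promoters in the same window. On either strand the shares were 91.5% and 38.2%. Core below means a match to these 4 letters, which need not be the conserved element. The core lay 26 to 95 bases before the start, with a median of 54. By cluster it was present in 12 of 13 PCDHA, 12 of 14 PCDHB and 19 of 20 PCDHG promoters. The 30 bases around it are printed below for members that changed in the knockout, for 2 alpha members with a mean under 0.5 CPM in both groups (PCDHA6 and PCDHA8) and for the most abundant alpha C-type. All are on the plus strand, 5′ to 3′, with the 4 letters in capitals. In PCDHAC2 the letters before them differ from those shared by the other alpha members printed.
PCDHA4 (chr5:140806975-140807004): ggtttggagccacatgatgtCGCTctttac
PCDHA5 (chr5:140821538-140821567): ccctttcatccacatgatgtCGCTggacac
PCDHA6 (chr5:140827893-140827922): cttttggagccgcatgatgtCGCTgtctac
PCDHA8 (chr5:140841126-140841155): cttttgaagccacatgatgtCGCTgtctac
PCDHA12 (chr5:140875240-140875269): cataatcagtcacatgatgtCGCTctacac
PCDHAC2 (chr5:140966415-140966444): gacttgctgagccctcctacCGCTcccttt
PCDHB2 (chr5:141094540-141094569): tcggaagagacgcggggtggCGCTgcagcc
PCDHGB5 (chr5:141397886-141397915): ggccaaagtgcagagcttggCGCTccagat
PCDHGB7 (chr5:141417603-141417632): gtcggccagtgcagagcaagCGCTgacgcc
Among the 12 alpha promoters with the core, 8 had the same 8 letters before it, giving CATGATGTCGCT. These were PCDHA1, PCDHA2, PCDHA4, PCDHA5, PCDHA6, PCDHA7, PCDHA8 and PCDHA12. That 12-letter word, picked from the members themselves, stood in the same window, in the direction of transcription, of 8 of all 35116 promoters. Flanks were more varied elsewhere, with 7 different ones among 12 beta promoters and 16 among 19 gamma promoters. The core was present in 6 of the 7 members that changed in the knockout. PCDHB5 had no such letters in this window.

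Totals ran from 67674223 to 80810319 counts per library, and the members held 8742 to 11158 of them, or 0.0108% to 0.015%. Levels are given in CPM, read counts divided by the TMM-adjusted library size and put on one common scale, or in FPKM where genes are compared with each other. A count of 3, taken as the floor, was worth 0.0389 to 0.0435 CPM, which covers counting error only. The message of IGF2BP3 had 58.8, 51.6 and 54.1 CPM in control against 39.9, 25.0 and 22.6 CPM in knockout, so it was lower and still present. Libraries of a group differed beyond sampling noise, and 2 stood apart. Chi-square per degree of freedom over genes was 98.1 and 106 between knockout library 1 and the other 2 knockout libraries, against 14.8 between those. It was 45.3 and 45.2 between control library 3 and the other 2 controls, against 12.2 between those. The keratins KRT8 and KRT18, markers of epithelial carcinoma cells, were at 4752 ± 151 and 3056 ± 165 CPM in control (SD, n = 3). Markers of other cell types are given with the neuronal ones at the end.

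H1299 cells expressed members of all 3 clusters at low to moderate level, and the cluster sums differed in what the knockout libraries showed. The alpha cluster as a whole was the most abundant, and its sum was lower in knockout. PCDHA summed to 88.1, 83.9 and 88.5 CPM in control and to 69.9, 74.1 and 81.4 CPM in knockout, without overlap. The means were 86.9 ± 2.55 and 75.2 ± 5.82 CPM (SD, n = 3). In FPKM the alpha sums did overlap, with 12.06, 11.6 and 12.1 in control and 9.44, 10.6 and 11.9 in knockout. PCDHB summed to 21.9, 25.6 and 20.7 CPM in control and to 11.2, 17.3 and 16.4 CPM in knockout, again without overlap, with means of 22.7 ± 2.53 and 14.99 ± 3.27 CPM. PCDHG went the other way in 2 of the 3 knockout libraries. Its sums were 34.8, 33.9 and 29.5 CPM in control and 32.7, 43.7 and 45.9 CPM in knockout, so that the groups overlapped through knockout library 1. The means were 32.7 ± 2.86 and 40.8 ± 7.08 CPM. No test was made on these sums. For the alpha and gamma clusters, how reads of the constant exons were divided is not given, and the sums may hold such reads more than 1 time. In RNA from a whole culture, fewer cells with an isoform and less of its RNA per cell cannot be told apart.

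**Figure D1:**
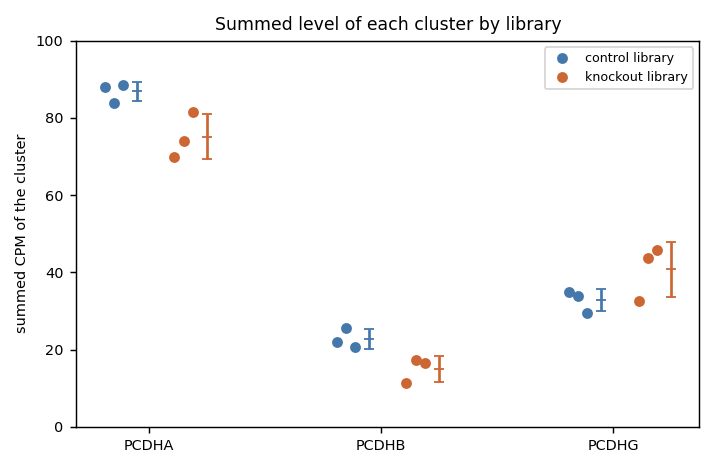
Summed CPM (y axis, linear from 0) of the PCDHA, PCDHB and PCDHG clusters in each library (points, 3 control and 3 knockout), with the mean and SD of each group as a tick and bar beside them. The knockout points lie below the control points for PCDHA (69.9 to 81.4 against 83.9 to 88.5) and PCDHB (11.2 to 17.3 against 20.7 to 25.6), and overlap with them for PCDHG.

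Gene by gene, 43 members had enough counts to be tested, 13 in PCDHA, 15 in PCDHB and 15 in PCDHG, and 17 had not. Of the 43, 5 were lower in knockout and 2 were higher at an adjusted p of 0.05 (edgeR's quasi-likelihood test, Benjamini-Hochberg over 20134 genes). The 5 were PCDHA4, PCDHA5 and PCDHA12 in the alpha cluster and PCDHB2 and PCDHB5 in the beta cluster, and the 2 were PCDHGB5 and PCDHGB7 in the gamma cluster. The share called was 16.3%, near the 19.7% of all genes tested, of which 8.21% were higher and 11.5% lower. It was 23.1% in PCDHA and 13.3% in both PCDHB and PCDHG. By edgeR 0 alpha and 0 beta members were higher and 0 gamma members lower, where an unadjusted p of 0.05 gave 1, 2 and 0 and DESeq2 called 1, 0 and 0. Groups did not overlap for 15 of the 43 members (34.9%), 8 above and 7 below control, against 41.3% of all genes. The members' shares are thus near those of all genes. The median log2 fold change was -0.37 in PCDHA, with 9 of 13 values below 0, and 0.56 in PCDHG, with 12 of 15 above 0, while that of all genes was 0.01. In PCDHB it was 0.24, with 8 of 15 above 0, and it was below 0 under 8 of the 14 alternative settings. It was below 0 for PCDHA and above 0 for PCDHG under each of the 14, but its size moved. For PCDHA it ran from -0.56 with a mean count of at least 100 to -0.01 without control library 2, and it was -0.08 without knockout library 1. For PCDHG it ran from 0.07 with limma on log2 FPKM to 0.95 without knockout library 1. The filter lets in low genes that are high in 1 group alone, as PCDHGB7 was in knockout. The PCDHG median was 0.49 with no filter and 0.21 with a mean count of at least 100. On the whole of chromosome 5, 917 genes were tested, 72 were higher and 79 lower, with a median of 0.02.

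**Figure D2:**
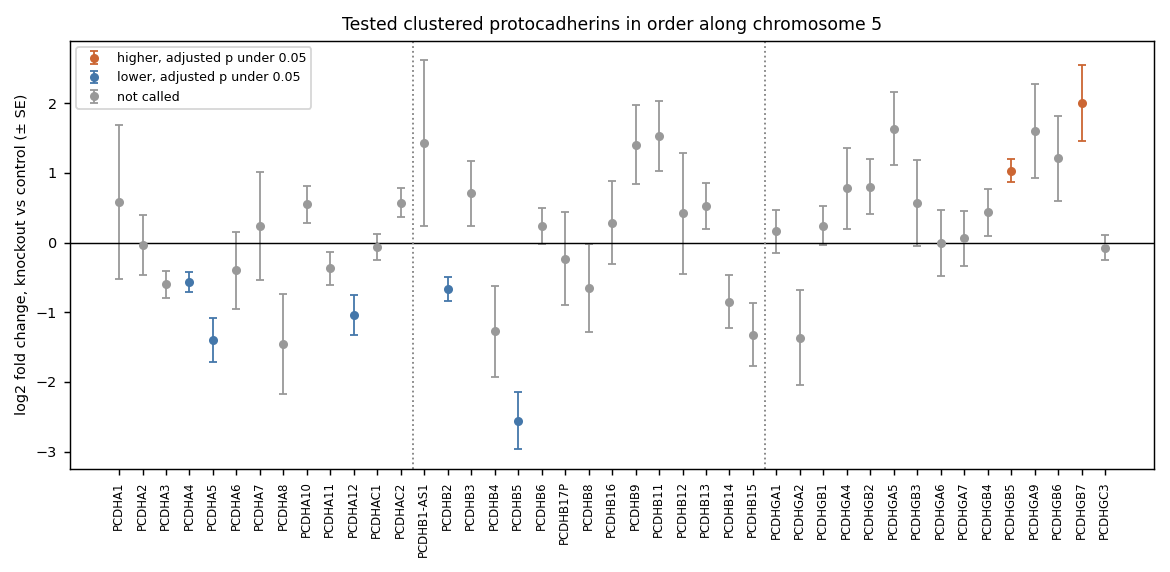
Log2 fold change of knockout against control (y axis, points, with standard error as bars) for the 43 tested members in their order along chromosome 5 (x axis), with dotted lines between the clusters and colours for the 5 lower, 2 higher and 36 uncalled members. PCDHB5 is the lowest at -2.56 and PCDHGB7 the highest at 2.00, and 12 of the 15 gamma values lie above 0.

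In the alpha cluster, which encodes the isoforms with the alpha cytoplasmic end, the 3 genes that fell are all of the variable kind. So were all alpha genes tested except PCDHAC1 and PCDHAC2. In neurons the variable promoters are the ones known to be chosen at random. PCDHA12 had 19.6, 17.9 and 21.2 CPM in control and 13.8, 5.54 and 9.20 CPM in knockout. All knockout values were below all control values, with knockout library 1 the nearest to them. Its log2 fold change was -1.04 (SE 0.29, edgeR adjusted p = 0.041), a 2.06-fold lower level. PCDHA5 had 5.23, 3.64 and 6.99 CPM in control and 1.75, 1.56 and 2.72 CPM in knockout, also without overlap. Its level was 2.63-fold lower (log2 fold change -1.39, SE 0.31, edgeR adjusted p = 0.019). PCDHA4, the neighbouring gene upstream, was at 14.7, 11.4 and 13.05 CPM in control and at 8.43, 9.16 and 8.83 CPM in knockout. That is 1.48-fold lower (log2 fold change -0.57, SE 0.14, edgeR adjusted p = 0.025), with little spread in knockout. PCDHA3, next to it again, had 8.42, 8.71 and 10.0 CPM in control and 4.61, 6.27 and 7.04 CPM in knockout and did not pass (log2 fold change -0.60, SE 0.19, edgeR adjusted p = 0.061). The 3 alpha calls are less firm than their ranges look. Leaving out 1 library at a time kept PCDHA5 in 3 of 6 fits, PCDHA4 in 2 and PCDHA12 in 1. The adjusted p-values in those fits ran from 0.021 to 0.068 for PCDHA5, from 0.036 to 0.1 for PCDHA4 and from 0.0039 to 0.12 for PCDHA12. PCDHA12 was called only without knockout library 1, PCDHA4 only without control library 2 or knockout library 1, and PCDHA5 only without control library 2, knockout library 1 or knockout library 3. With the replicate number as a block, PCDHA4 had an adjusted p of 0.063.

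Neither alpha C-type was called. PCDHAC2, the member with the highest mean FPKM of the alpha cluster, was at 24.2, 23.6 and 16.2 CPM in control and at 23.3, 34.4 and 37.6 CPM in knockout. The groups overlapped, since knockout library 1 lay below control libraries 1 and 2. Control library 3 was the lowest of the 6. Its log2 fold change was 0.57 (SE 0.21, edgeR adjusted p = 0.099). Without knockout library 1 the gene was called higher, with a log2 fold change of 0.76 and an adjusted p of 0.016, and DESeq2 gave an adjusted p of 0.026. PCDHAC1 had 6.87, 8.97 and 8.91 CPM in control and 8.13, 9.15 and 6.47 CPM in knockout, a difference within the spread of either group (log2 fold change -0.06, SE 0.18, edgeR adjusted p = 0.86). The other alpha genes above 0.5 CPM in every library were PCDHA2, PCDHA10 and PCDHA11, with edgeR adjusted p-values of 0.97, 0.19 and 0.31. PCDHA6, PCDHA7, PCDHA8, PCDHA9 and PCDHA13 were at a mean of 0.0848 to 0.452 CPM in either group. PCDHA1 shows how uneven single values could be, with 73, 0 and 80 counts in the knockout libraries and 23, 23 and 48 in control.

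In the beta cluster, whose single-exon genes make proteins without the constant cytoplasmic end, PCDHB5 had the lowest log2 fold change of the 43 tested members. It was at 3.87, 4.36 and 3.33 CPM in control, from 230 to 301 counts. In knockout it was at 0.300, 0.680 and 0.985 CPM, from 23 to 76 counts, so that the highest knockout value was well below the lowest control value. The level was 5.88-fold lower (log2 fold change -2.56, SE 0.41, edgeR adjusted p = 0.0047). PCDHB5 was called under each of the 14 alternative settings, with adjusted p-values from 2.8e-09 to 0.024, each library left out in turn included. PCDHB2, the most abundant beta member, was at 10.96, 11.8 and 10.4 CPM in control and at 5.51, 7.66 and 7.72 CPM in knockout, without overlap. It was 1.59-fold lower (log2 fold change -0.67, SE 0.17, edgeR adjusted p = 0.029). With 1 library left out it passed in 1 fit of 6, that without knockout library 1, and adjusted p-values ran from 0.026 to 0.11. PCDHB6, the neighbour of PCDHB5, did not share its fall. It had 1.86, 2.45 and 1.48 CPM in control and 2.20, 2.56 and 2.06 CPM in knockout, and the groups overlapped (log2 fold change 0.24, SE 0.26, edgeR adjusted p = 0.57). Only PCDHB2 and PCDHB6 were above 0.5 CPM in all 6 libraries. Most other beta genes lay between the floor and 1 CPM, with values on either side of control and no call, as with PCDHB11 (0.144 ± 0.0242 to 0.421 ± 0.129 CPM, edgeR adjusted p = 0.072) and PCDHB15 (0.597 ± 0.141 to 0.238 ± 0.0667 CPM, edgeR adjusted p = 0.078). The antisense RNA PCDHB1-AS1 had 15, 6 and 21 counts in control and 0, 56 and 62 in knockout. Whether counting used the strand is not given in the sources used here.

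In the gamma cluster, which adds the gamma cytoplasmic end, PCDHGB5 rose. It was at 4.76, 5.99 and 4.20 CPM in control and at 10.6, 9.76 and 10.3 CPM in knockout, tightly grouped and well above control. The level was 2.05-fold higher (log2 fold change 1.03, SE 0.17, edgeR adjusted p = 0.0051). It was called under 13 of the 14 alternatives, among them each of the 6 fits with 1 library left out (adjusted p 0.0074 to 0.032), and lost only in the test against a minimum fold of 1.5 (adjusted p = 0.071). Its first exon shares 16.8% of its words with PCDHGB4, which did not pass (2.61 ± 0.587 to 3.52 ± 1.46 CPM, edgeR adjusted p = 0.43). PCDHGB7 rose from a level near the floor, from 9, 8 and 4 counts to 28, 29 and 32, or from 0.119, 0.116 and 0.0580 CPM to 0.365, 0.411 and 0.415 CPM. It was 4.00-fold higher (log2 fold change 2.00, SE 0.55, edgeR adjusted p = 0.039). All its control counts were under the filter's minimum of 10, so PCDHGB7 was tested only because its knockout libraries were high. In 0 of 6 fits with 1 library left out did it pass, with adjusted p-values from 0.062 to 0.12, nor with the replicate number as a block (0.11). Both are of the PCDHGB subfamily, whose 7 genes were all tested and all had a log2 fold change above 0, with a median of 0.80. Of the 12 PCDHGA genes 7 were tested, 5 had a value above 0 and 0 were called by edgeR, with a median of 0.16. At an unadjusted p of 0.05 edgeR had 2 PCDHGA genes higher, PCDHGA5 and PCDHGA9, and DESeq2 called 1, PCDHGA5. The difference between the subfamilies was not tested.

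The gamma C-type PCDHGC3, the gamma member with the highest mean FPKM, was at 15.8, 15.2 and 10.96 CPM in control and at 10.9, 14.7 and 14.3 CPM in knockout. The groups overlapped almost fully (log2 fold change -0.07, SE 0.18, edgeR adjusted p = 0.82). PCDHGC4 and PCDHGC5 had 0 to 15 counts in a library and were not tested. PCDHGA7, next after PCDHGB5 by FPKM, varied more within the groups than between them, with 2.79, 2.23 and 4.38 CPM in control and 1.86, 2.93 and 5.00 CPM in knockout (log2 fold change 0.06, SE 0.40, edgeR adjusted p = 0.94). PCDHGA5 had 0.398, 0.304 and 0.116 CPM in control and 0.573, 0.935 and 1.05 CPM in knockout, which did not overlap and did not pass (log2 fold change 1.63, SE 0.52, edgeR adjusted p = 0.064).

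**Figure D3:**
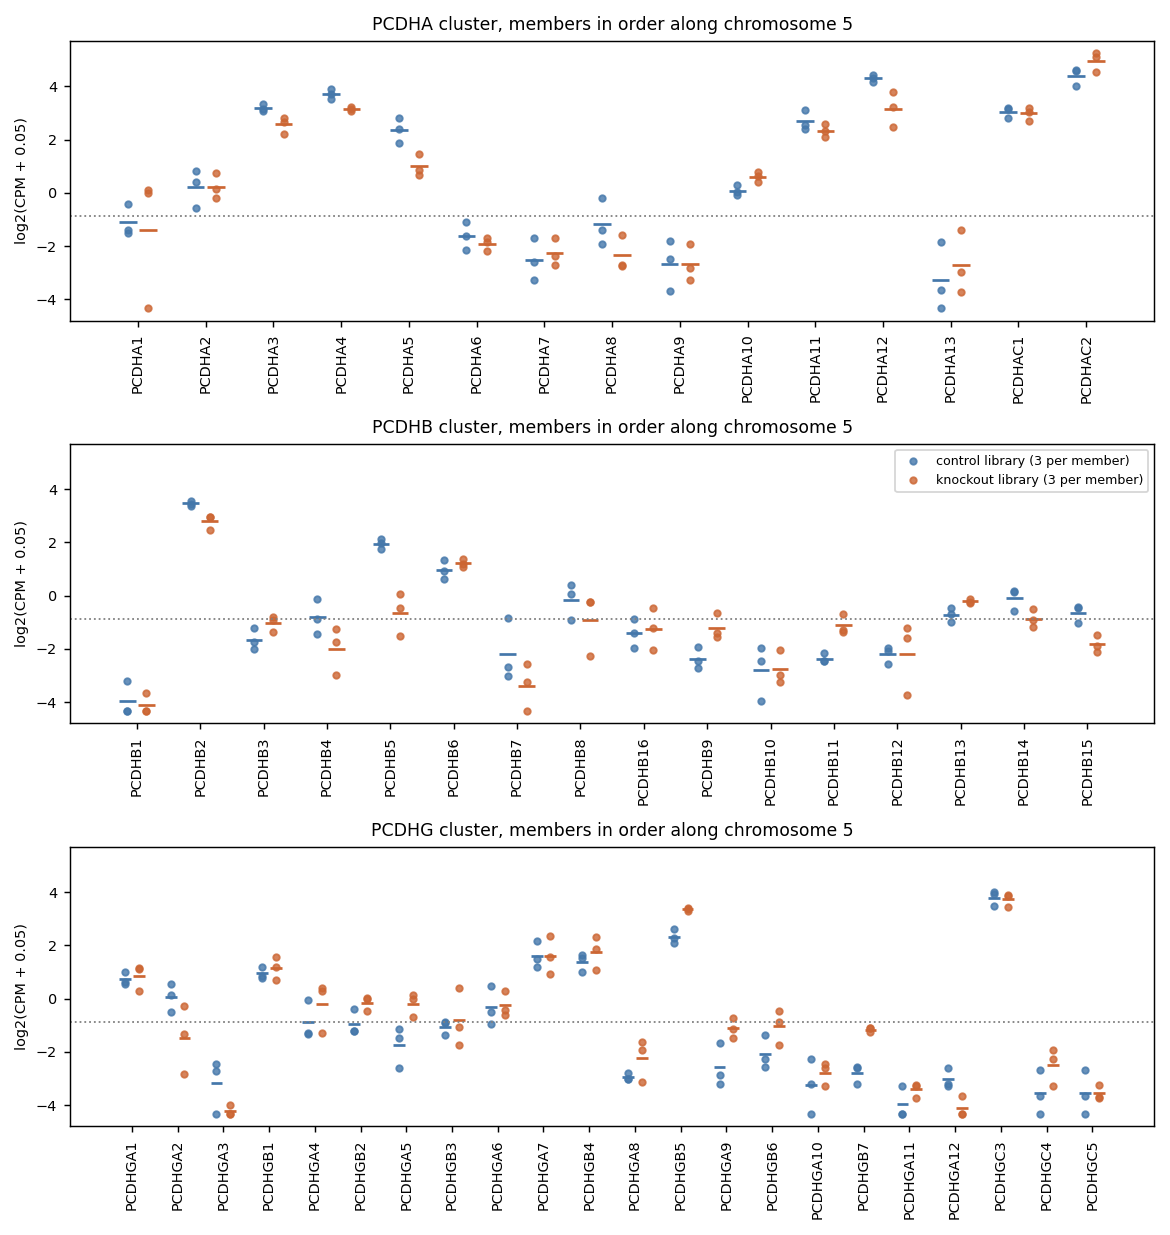
Level of each protein-coding member in each library, as log2 of CPM plus a pseudocount of 0.05 (y axis), in order along chromosome 5 (x axis), with 3 control and 3 knockout points per member, a short line at each group's mean of the log values and a dotted line at 0.5 CPM. Members stand at very different levels within each cluster, and no member passes from the floor in one group to above the dotted line in the other.

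The libraries were then read for on-off choice. A member was called on in a group when it had at least 0.5 CPM in all 3 libraries, and off when it had at most 3 counts in all 3. In control 20 of 60 members were on and in knockout 21, with 17 on in both. These 17 were PCDHA2, PCDHA3, PCDHA4, PCDHA5, PCDHA10, PCDHA11, PCDHA12, PCDHAC1, PCDHAC2, PCDHB2, PCDHB6, PCDHGA1, PCDHGB1, PCDHGA7, PCDHGB4, PCDHGB5 and PCDHGC3. By cluster, 9 were on in control and 9 in knockout for PCDHA, 4 and 3 for PCDHB, and 7 and 9 for PCDHG. The alpha set was the same in both groups at this threshold. At 1 CPM PCDHA10 was on in knockout only, and at 0.2 CPM PCDHA1 and PCDHA8 were on in control only. PCDHB5, PCDHB14 and PCDHGA2 were on in control only, and PCDHB13, PCDHGB2, PCDHGA5 and PCDHGA6 in knockout only, and of these 7 only PCDHB5 was called different. Its knockout libraries held 23 to 76 counts, above the floor. No member went from on to off or from off to on, and that count stayed at 0 with on set at 1 or 0.2 CPM and with off set at 10 counts. The members on were 16 in either group at 1 CPM, and 32 in control and 31 in knockout at 0.2 CPM. Few members were off at all, 2 in control and 3 in knockout, and 44 of 60 had a count above 0 in all 6 libraries. Of the 53 protein-coding members, 25 had a mean under 0.5 CPM. The promoter core stood in 20 of the 22 members with a promoter entry that were on in a group (90.9%) and in 23 of the 25 others (92.0%).

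The make-up of each cluster was compared as the share of each member in the cluster's summed FPKM. In alpha PCDHAC2 held more of the total in knockout. Its share was 30.8%, 31.2% and 20.4% in control and 36.3%, 52.0% and 50.4% in knockout, while that of PCDHA12 was 27.7%, 26.3% and 29.8% against 23.9%, 9.26% and 13.7%. Both sets did not overlap, and knockout library 1 was in each case the nearest to control. The 2 C-types together held 36.8 ± 5.83% of the alpha FPKM in control and 56.5 ± 8.40% in knockout (SD, n = 3). The effective number of members, which is 1 over the sum of squared shares and equals the number of genes when all are alike, was 5.26 ± 0.43 in control and 3.75 ± 0.73 in knockout. In beta, PCDHB2 led in all 6 libraries with a near-constant share, 45.0 ± 2.67% and 43.7 ± 2.78%. Second place went from PCDHB5 to PCDHB6. The share of PCDHB5 was 19.6%, 18.7% and 18.0% in control and 3.01%, 4.37% and 6.70% in knockout, and that of PCDHB6 was 9.77 ± 1.31% and 18.5 ± 4.50%. The effective number was 3.92 ± 0.32 and 4.19 ± 0.56. In gamma the leading C-type held a smaller share in knockout and a variable isoform a larger one, the reverse of the alpha shares. By level neither leading C-type was called, PCDHGC3 or PCDHAC2 (edgeR adjusted p = 0.82 and 0.099). PCDHGC3 held 46.0%, 45.1% and 37.7% in control and 32.5%, 33.4% and 31.2% in knockout, and PCDHGB5 held 15.4%, 19.7% and 16.0% against 35.2%, 24.6% and 25.0%. In knockout library 1 PCDHGB5 was the most abundant gamma member, and PCDHGC3 was so in the other 5 libraries. The effective number was 4.22 ± 0.54 and 4.92 ± 0.68. A share moves when any member of its cluster moves, and for alpha and gamma it also rests on the division of reads in the constant exons, whose part was not tested.

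**Figure D4:**
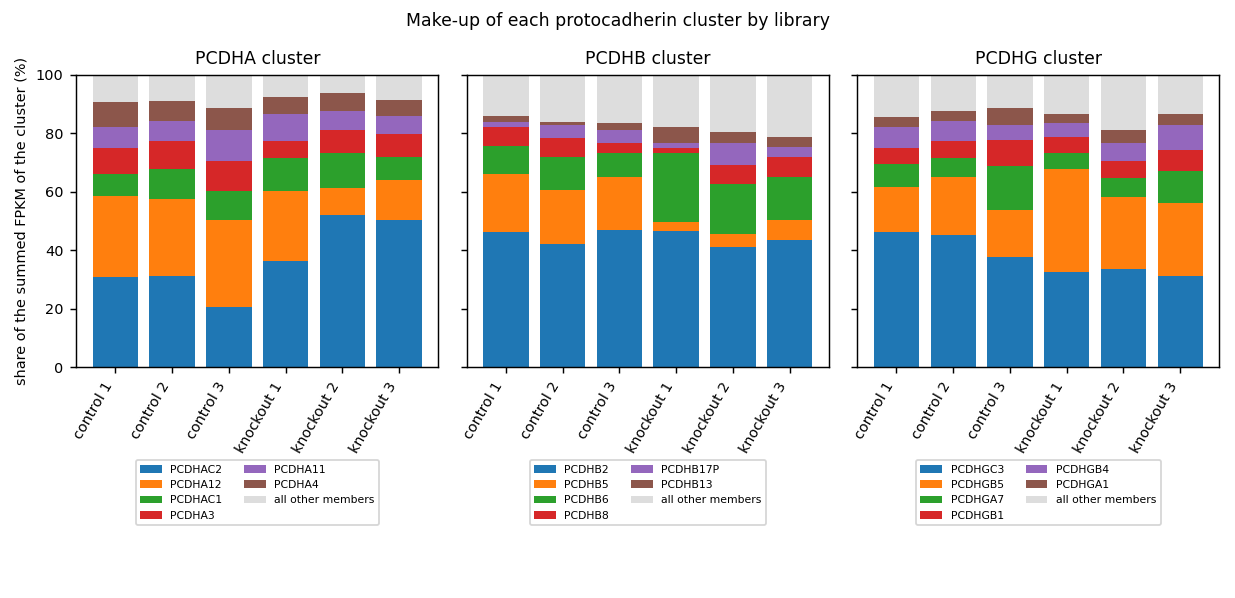
Share of each member in the summed FPKM of its cluster (y axis, percent), as stacked bars for the 3 control and 3 knockout libraries, with the 6 largest members of each cluster in colour and all others in grey. PCDHAC2 widens from 20.4% to 31.2% in control to 36.3% to 52.0% in knockout, PCDHB5 shrinks from at least 18.0% to at most 6.70%, and PCDHGB5 widens from at most 19.7% to at least 24.6%.

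Outside the arrays, lists of related genes were read by the same test. Counts in these lists stand beside the 19.7% called among all genes tested, 8.21% higher and 11.5% lower, and no list was tested as a set. Of 12 listed protocadherins encoded outside the arrays, single genes that lack the shared exons, 7 were tested, 2 fell and 0 rose by edgeR. Their median log2 fold change was -0.63. DESeq2 likewise called 2 lower and 0 higher, and 2 were higher at an unadjusted p of 0.05 in edgeR. PCDH10 had 3.28, 3.61 and 3.10 CPM in control and 0, 0.113 and 0.363 CPM in knockout (edgeR adjusted p = 0.011). PCDH18 had 0.703, 0.899 and 0.522 CPM in control and 0.0521, 0 and 0 CPM in knockout, which is 4 counts in all (edgeR adjusted p = 0.0095). The other 5 tested genes were not called, and PCDH9, at 104 ± 7.62 and 119 ± 3.86 CPM, was the most abundant by CPM of those 7. Of 28 listed genes that act in promoter choice or silencing, 27 were tested, 4 rose, 1 fell and the median was 0.06. The share called was near that of all genes. The 22 not called included RAD21, STAG1, STAG2 and DNMT3A, whose groups overlapped. NIPBL, at 90.9 ± 1.44 and 79.2 ± 1.60 CPM in control and knockout, was also not called (edgeR adjusted p = 0.064). Nor was DNMT1, at 150 ± 26.9 and 209 ± 31.3 CPM (edgeR adjusted p = 0.068). The groups did not overlap for NIPBL or DNMT1. CTCF, the factor that binds the protocadherin promoters and enhancers, fell from 95.8 ± 2.39 to 76.1 ± 5.98 CPM (log2 fold change -0.33, edgeR adjusted p = 0.022). The cohesin subunit SMC3 rose from 136 ± 13.2 to 173 ± 8.62 CPM (edgeR adjusted p = 0.033). The DNA methyltransferase DNMT3B rose from 11.1 ± 0.77 to 14.9 ± 0.92 CPM (edgeR adjusted p = 0.038). SMC1A and TRIM28 were the other 2 that rose. Whether these differences have a part in the protocadherin levels was not tested.

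Of 18 listed partners of the cytoplasmic ends and proteases that cut protocadherins, all were tested, 4 rose and 4 fell, with a median of 0.04. PTK2B, a kinase of the focal adhesion family that the alpha and gamma cytoplasmic ends are known to inhibit, fell from 53.8 ± 9.80 to 17.4 ± 3.25 CPM (log2 fold change -1.63, edgeR adjusted p = 0.00073). AXIN1, a scaffold of the Wnt pathway, fell from 44.7 ± 4.80 to 28.2 ± 3.28 CPM (edgeR adjusted p = 0.0068). WASF3, a subunit of the WAVE complex that controls actin branching, rose from 1.02 ± 0.39 to 4.71 ± 2.21 CPM (edgeR adjusted p = 0.014). Around the arrays, 78 other genes lay within 1 megabase, among them PCDH1 and PCDH12 of the protocadherin list above. Of the 78, 43 were tested, 3 fell and 0 rose by edgeR, with a median of 0.02. At an unadjusted p of 0.05 edgeR had 3 higher, and DESeq2 called 1 higher. The 3 were CD14 (15.9 ± 0.78 to 6.29 ± 1.75 CPM, edgeR adjusted p = 0.0045), ARAP3 (14.8 ± 2.15 to 8.64 ± 0.27 CPM, edgeR adjusted p = 0.0072) and ANKHD1-EIF4EBP3 (122 ± 27.7 to 68.0 ± 22.9 CPM, edgeR adjusted p = 0.049). The last is a readthrough gene, its groups overlapped (92.7 CPM in control library 2 and 94.2 in knockout library 2), and ANKHD1, whose span it shares, was at 54.9 ± 20.5 and 86.3 ± 25.5 CPM (edgeR adjusted p = 0.17). How reads were divided between the pair was not tested. TAF7, which lies between the beta and gamma clusters, was at 115 ± 9.23 and 115 ± 13.4 CPM (edgeR adjusted p = 0.99).

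Since protocadherin isoforms are best known from neurons, a list of 7 neuronal markers was set beside the members. Of its 6 tested genes, 1 rose and 2 fell, with a median of 0.14. SYP, which encodes a synaptic vesicle protein, rose from 1.22 ± 0.27 to 6.501 ± 1.51 CPM (edgeR adjusted p = 0.00091). MAP2, a protein of dendritic microtubules, fell from 43.7 ± 6.18 to 12.2 ± 2.24 CPM (edgeR adjusted p = 0.0003), and SNAP25, of the synaptic fusion machinery, fell from 72.6 ± 3.13 to 29.9 ± 8.62 CPM (edgeR adjusted p = 0.0027). RBFOX3, which encodes the neuronal nuclear antigen NeuN, was at 10.4, 7.31 and 7.55 CPM in control and at 5.05, 35.3 and 33.7 CPM in knockout, and was not called (edgeR adjusted p = 0.11). As with PCDHAC2, knockout library 1 was apart from the other 2 knockout libraries. The summed level of the 7 genes was 295 to 325 CPM in control and 224 to 336 CPM in knockout.

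Of 5 listed carcinoma markers, all tested, 3 fell and 2 were not called. They were KRT8, KRT18, KRT19, EPCAM and VIM, the last of which marks mesenchymal rather than epithelial cells. With VIM included, their sum was 8715 to 9381 CPM in control and 4989 to 6379 CPM in knockout. VIM alone was at 1198, 1259 and 1192 CPM in control and at 1900, 1035 and 1000 CPM in knockout. KRT19 fell from 64.1 ± 4.79 to 0.645 ± 0.112 CPM (log2 fold change -6.64, edgeR adjusted p = 1.8e-06). KRT8 and KRT18 fell to 2427 ± 260 and 1715 ± 30.5 CPM (edgeR adjusted p = 0.00082 and 0.00064), and EPCAM and VIM were not called. Of 4 type II alveolar markers, NAPSA fell from 1.58 ± 0.54 to 0.691 ± 0.0914 CPM (edgeR adjusted p = 0.040). NKX2-1 was at 0.0547 ± 0.0531 and 0.483 ± 0.265 CPM (edgeR adjusted p = 0.061), and the surfactant genes SFTPB and SFTPC were at no more than 0.246 CPM in any library. That list summed to 1.28 to 2.39 CPM in control and 0.795 to 1.56 CPM in knockout.

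Of 3 leukocyte markers, CD68, which is also a lysosomal protein of other cells, fell from 19.99 ± 4.20 to 11.04 ± 2.30 CPM (edgeR adjusted p = 0.021). CD3E was at 0 in all 6 libraries and PTPRC in 5 of 6, and the list summed to 16.7 to 24.7 CPM in control and 9.21 to 13.5 CPM in knockout. Of the endothelial markers PECAM1 fell from 0.391 ± 0.126 to 0.0216 ± 0.027 CPM (edgeR adjusted p = 0.021), and CDH5 was not tested. These 2 summed to 0.406 to 0.73 CPM in control and 0 to 0.156 CPM in knockout. Of 3 fibroblast markers, 2 were tested and 0 called by edgeR, where an unadjusted p of 0.05 gave 1 higher and 1 lower and DESeq2 called 1 lower. COL1A1 was at 6.68 ± 0.65 and 9.26 ± 1.79 CPM (edgeR adjusted p = 0.10), DCN at 0.45 ± 0.029 and 0.058 ± 0.0586 CPM (edgeR adjusted p = 0.060), and COL1A2 at 0 in 5 of 6 libraries. The fibroblast sum was 6.47 to 7.74 CPM in control and 8.14 to 11.6 CPM in knockout. The part of these markers in the protocadherin differences was not tested.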

How the data were processed

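For each gene the deposited table gives, library by library, a whole read count that was not normalized. It also gives an FPKM value, which the authors scaled by gene length and by the number of reads. The build was GRCh38, and the tools were Cutadapt, HISAT2 2.0.4, edgeR and StringTie 1.3.4d, per the submitters' processing notes. Not given in the sources used here are the annotation release and strand setting. Low genes were removed by filterByExpr (minimum count 10, total 15). The fit was edgeR's quasi-likelihood model (version 4.0.16, R 4.3.3) of all 6 libraries on genotype alone, after TMM scaling. The threshold was an adjusted p of 0.05 over 20134 genes. FPKM were used for shares and for levels between genes. Constant exons came from GENCODE release 29 and promoters from RefSeq. Named were all called members, the 3 highest by mean FPKM in each cluster, the C-types, and in each other list up to 3 called genes by adjusted p; other genes named were chosen after their values were seen. Members and lists were chosen with earlier results of these data known. The 14 alternatives comprised DESeq2 1.42.0, limma 3.58.1 on log2 of FPKM plus 1 (mean of at least 0.1), other size factors, a block for replicate number, a mean count of 100 or more, no filter, a 1.5-fold minimum and each library left out. The last, halved counts in case both mates of a pair were counted, was added after seeing the data. The promoter sequence of 1 member is not reported here.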

Additional observations from a re-analysis of the deposited data

How the results depend on the processing

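Of the clustered protocadherins, 2 were called higher and 5 lower. The higher count was 1 with no filter, with a mean count of at least 100, with limma on log2 FPKM and with the replicate block, 4 with DESeq2 and 0 against a minimum fold of 1.5. The lower count was 3 with no filter and 1 against a minimum fold of 1.5, where only PCDHB5 was left. With 1 library left out at a time, 1 to 4 members were higher and 1 to 5 lower. Without control replicate 1, control replicate 3 or knockout replicate 2 the counts were 1 and 1, without knockout replicate 3 they were 1 and 2, and without knockout replicate 1 they were 4 and 5. The replicate block gave 1 higher and 4 lower. It lost PCDHA4 (edgeR adjusted p = 0.063) and PCDHGB7 (0.11). Libraries with the same number did not deviate together (r = -0.005, -0.07 and -0.06 across genes, which are not independent replicates). With 3 libraries a group, these values cannot tell whether such libraries share more than a number. The effective number of members in control was 6.03 for PCDHA and 3.57 for PCDHB when taken from CPM in place of FPKM, and 3.57 for PCDHB without pseudogenes. The median of PCDHB ran from -0.66 with a mean count of at least 100 to 0.24 as reported. The causes were not tested. There were 3 libraries a group, and 25 of the 53 protein-coding members had a mean under 0.5 CPM.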
